A study of Mus musculus with 11 samples.

Results

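Acyl-CoA thioesterases hydrolyse acyl-CoA esters to the free fatty acid and coenzyme A. The mRNA levels of 10 mouse genes for these enzymes, Acot1, Acot2, Acot3, Acot4, Acot6, Acot7, Acot8, Acot9, Acot11 and Acot13, were examined in im-scWAT cells. These are preadipocytes from the inguinal subcutaneous white fat of the mouse, immortalized with large T antigen. The genes were chosen by symbol, as sense rows marked as the representative transcript, among 29955 gene symbols, and the family was picked from earlier results on the same samples, with the FPKM values of all 11 samples known. The values below are therefore a description, and no test was made on them. FPKM relates the reads on a transcript to its exon length and to the mapped total of the sample, so levels of different genes are compared here per length.

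Of 11 RNA-seq samples, 6 form a time course and 5 were transduced. In the time course, cells were collected at days 0, 4 and 8 of differentiation with rosiglitazone (ROS, a ligand of PPARγ) at 0.5 μM or without it, and each combination had 1 sample. All cells of days 4 and 8 had been induced with dexamethasone, IBMX, indomethacin, insulin and T3, with or without ROS. The methods of the study add ROS with these inducers to cells that were confluent at day 0. Whether the day 0 sample labelled with ROS had received any is therefore not certain. The labels place a change to medium lacking ROS at day 7, whereas the methods of the study describe ROS up to day 8, so the exposure in the last day is not certain. The transduced cells were all at day 8 with ROS and all carried retroviral sh-mJmjd1a, against the mouse Jmjd1a gene (Kdm3a, an H3K9 demethylase), together with human JMJD1A from a retroviral LTR promoter. The introduced JMJD1A was wild type in 2 samples (WT A and WT B), S265A (the phosphorylated serine changed to alanine) in 1, S265D (changed to aspartate) in 1, and S265D-H1120Y, in which the catalytic histidine was changed as well, in 1. Of the 10 groups only WT had replicates, and nothing states that WT A and WT B were separate cultures. The 2 samples of day 0, labelled with and without ROS, and the 2 WT samples give the only estimates of spread between samples.

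The enzymes fall into structural types that are unrelated in sequence. The type I enzymes, here Acot1, Acot2, Acot3, Acot4 and Acot6, belong to the α/β-hydrolases, and the type II enzymes, here Acot7, Acot8, Acot9, Acot11 and Acot13, have hotdog folds. Each compartment that handles acyl-CoA has its own members. Acot1 is cytosolic, Acot2 and Acot9 are mitochondrial, Acot3, Acot4, Acot6 and Acot8 are peroxisomal, Acot7 is a mainly cytosolic enzyme known from brain, Acot11 was first described as a cold-induced gene of brown fat, and Acot13 (also called Them2) is associated with mitochondria. In mouse liver, Acot1, Acot2 and several peroxisomal members are known targets of PPARα, the nuclear receptor activated during fasting.

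In the mm9 genome, the type I genes lie side by side on the plus strand of chromosome 12. In the order of the chromosome they are Acot2 (chr12:85328811-85334825), Acot1 (chr12:85350452-85358619), Acot4 (chr12:85379329-85385673), Acot3 (chr12:85393101-85400514) and Acot6 (chr12:85441604-85450733), with Acot5, which is not among the 10 genes, between Acot3 and Acot6. The 6 genes span 122 kb. The type II genes are scattered, with Acot7 at chr4:151573953-151645964, Acot11 at chr4:106417166-106472436, Acot8 at chr2:164618268-164630381, Acot9 at chrX:151697043-151732050 and Acot13 at chr13:24909824-24923358. All are protein-coding genes in GENCODE M1, and the coordinates are those of the deposited transcript.

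The compartments can be seen at the ends of the coding sequences. A protein enters the peroxisome when it ends in a type 1 targeting signal, a short motif whose typical form is serine, lysine, leucine. The last 30 coding bases before the stop codon, from GENCODE M1 transcripts of the same genome, are shown with the last 3 codons in capitals.
Acot3: ggcaaaaagaagacaatcccaGCAAAACTG
Acot4: agtacccacagcagagcctccTGTAGACTG
Acot6: ggtgaaaagcctgccaggcacAGCAAACTG
Acot8: ttgaagcctcaggtgtcagagAGTAAGCTA
Acot1: agtgagtgtttgcatgtgtctCCTAAAATA
Acot2: ttcttccacaaacagttgggtAGCAAGAGT
In the first 4, which are the peroxisomal members, a codon for lysine or arginine is followed by a final codon for leucine. Acot1 and Acot2 do not end in a leucine codon.

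The coding sequences of Acot1 and Acot2 are nearly the same, which bears on how well their reads can be separated. They were identical at 1180 of 1239 aligned bases (95.2%), with an unbroken identical run of 273 bases, and they differ at the end shown above and at the start, where Acot2 has a longer coding sequence (1362 bases against 1260 with the stop codon). Their first 60 coding bases are shown, since Acot2 begins with the mitochondrial leader that Acot1 lacks.
Acot1: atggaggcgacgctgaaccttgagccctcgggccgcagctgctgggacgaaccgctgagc
Acot2: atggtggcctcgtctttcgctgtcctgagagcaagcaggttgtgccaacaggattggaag
Of all 100-base windows in the Acot1 transcript, 32.6% were also found in another gene's transcript, mostly of Acot2, and 17.1% of those of Acot2 were found in Acot1. The share was 5.93% for Acot3, 1.82% for Acot6, 0.988% for Acot4, 0.968% for Acot9, shared with Acot10, and 0 for Acot7, Acot8, Acot11 and Acot13. For Acot6 the transcript searched had 3388 bases, against 1822 in the deposited row, so its share in that row may be larger. How reads that fit several transcripts were counted is not given in the sources used here, so the level of Acot1 in particular is uncertain.

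The depth behind the FPKM values went from 3.10 to 5.29 Gb of mapped bases per sample, with a median of 4.64 Gb, and 3 reads of 100 bases would give an FPKM between 0.0100 and 0.141 for these genes, depending on sample and length. At day 0 most adipocyte markers were low (Adipoq 0.121 and 0.0519 FPKM with and without ROS). Exceptions there were Fabp4 (248 and 249 FPKM), Pparg (18.95 and 19.3 FPKM) and Pnpla2 (8.44 and 8.41 FPKM). In all differentiated samples the markers were higher than at day 0 (Adipoq between 396 and 1291 FPKM), except Lep, which stayed at 0.252 FPKM or lower. Of 6 macrophage markers found, Ptprc, Emr1 and Itgam were under 0.1 FPKM in every sample, and so were Cdh5 among 5 endothelial and Myod1, Myog, Ckm and Myh1 among 5 muscle markers. Other markers of these lists were present, up to 21.7 FPKM for Cd68 and 3.47 FPKM for Pecam1, both in S265D-H1120Y, 19.3 FPKM for Acta1 in WT B, and 5.56 FPKM for Cd14 at day 0. Their part in the members' levels was not tested. The samples are bulk RNA, so fewer differentiated cells and less RNA per cell cannot be told apart. Mouse Kdm3a was 23.2, 15.1 and 21.1 FPKM at days 0, 4 and 8 with ROS, 20.9, 15.8 and 15.98 FPKM without ROS, 20.4 and 17.9 FPKM in WT A and WT B, 13.03 FPKM in S265A, 23.0 FPKM in S265D and 28.5 FPKM in S265D-H1120Y. That row does not show the knockdown that the labels of the transduced samples state. Whether reads of the human cDNA were counted in it was not tested, and the transduced samples are named by their labels.

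Among the 10 genes, 4 made up between 90.6% and 97.0% of the summed FPKM in every sample. They are Acot7, Acot9, Acot13 and Acot2. Acot2 held only 0.394% and 0.428% at day 0 with and without ROS, where Acot8 held 2.73% and 3.03%. In the time course Acot8 was above Acot2 in every sample except day 8 with ROS. At day 0 Acot7 and Acot9 together held 74.2% of the sum with ROS and 75.7% without, while their share at day 8 was 25.0% with ROS and 44.2% without. Acot13 and Acot2 held 22.8% and 21.1% at day 0, and 68.1% and 46.7% at day 8. The summed level was 248 and 250 FPKM at day 0, 140 and 127 FPKM at day 4, and 246 and 161 FPKM at day 8, each with ROS before without. The sum at day 8 with ROS thus nearly equalled that of day 0, but the members held different shares of it.

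**Figure D1:**
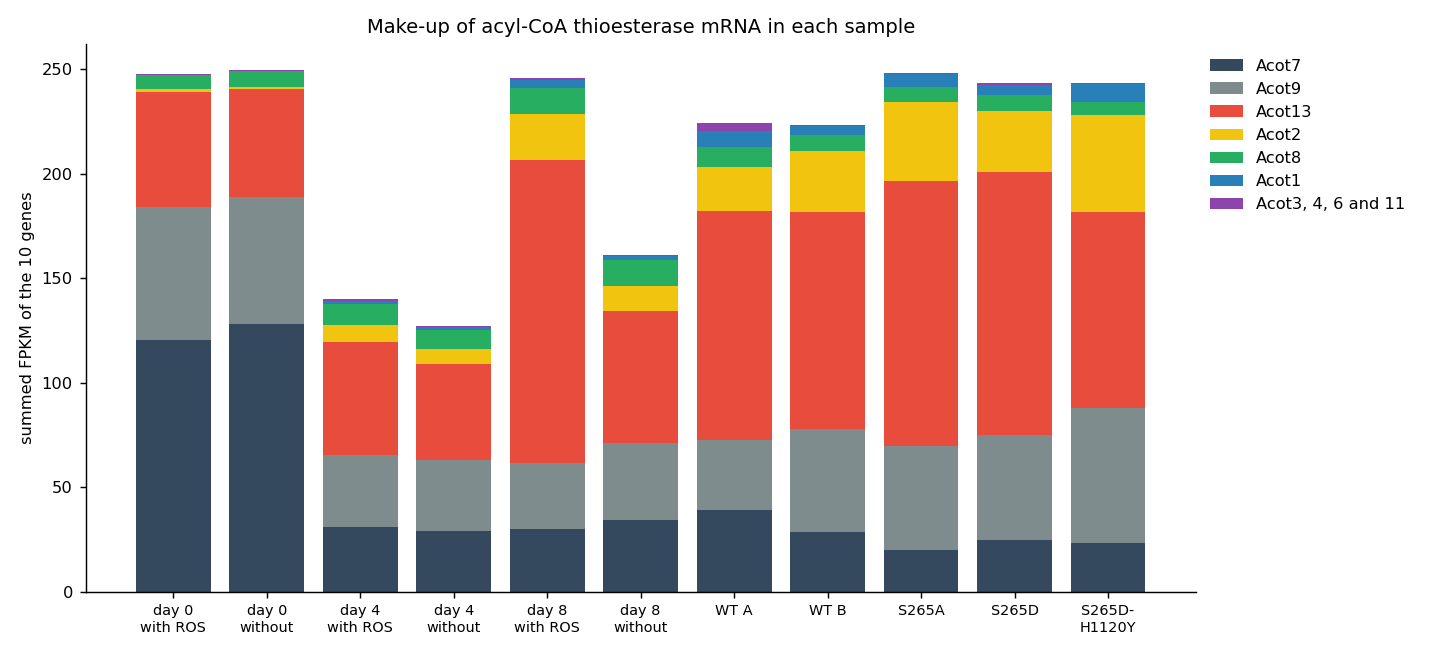
Summed FPKM (vertical axis) of the 10 acyl-CoA thioesterase genes in each of the 11 samples (horizontal axis), stacked by gene, with 1 sample per bar. Acot7 and Acot9 make up most of each bar at day 0 (74.2% and 75.7%), and Acot13 is the largest piece in all bars of day 8.

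At day 0 the levels stood in the order Acot7, Acot9, Acot13, Acot8, Acot2, Acot1, Acot6, Acot11, Acot4 and Acot3, and for each neighbouring pair with reads the values of the 2 samples did not overlap. At day 8 with ROS the order was Acot13, Acot9, Acot7, Acot2, Acot8, Acot1, Acot6, Acot4, Acot11 and Acot3. There Acot9 (31.2 FPKM) and Acot7 (30.2 FPKM) differed by less than the 2 day 0 samples did for Acot7. In the WT samples the ranges of Acot7 and Acot9 overlapped, and so did those of Acot7 and Acot2 and those of Acot8 and Acot1.

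Differentiation was described first, as the change from day 0 to day 8. Ratios are log2 ratios of FPKM + 0.1, so that those of weakly expressed genes come out too small, and a gene was counted as measured when it reached an FPKM of 0.1 in a sample of the comparison. A 2-fold difference is a log2 ratio of 1 or more in size. With ROS, 9 of the 10 genes were measured and 5 were 2-fold higher at day 8 (Acot1, Acot2, Acot4, Acot6 and Acot13), while 18.9% of 15689 measured genes were, and 2 were 2-fold lower (Acot7 and Acot9), against 23.2% of all. Without ROS, 3 were 2-fold higher (Acot1, Acot2 and Acot4), against 19.7% of 15823 measured genes, and Acot7 was 2-fold lower, against 11.4%. The median log2 ratio of the measured members was 1.28 with ROS and 0.69 without, and that of all measured genes was -0.18 and 0.09. Both comparisons belong to the values that picked the family, so the counts are given only as a description. Scaling the samples by the median of their ratios moved the median of all genes by 0.15 with ROS, and Acot9 was then not 2-fold lower (log2 ratio -0.86). Acot8 was then 2-fold higher with ROS (1.007). Without ROS, the log2 ratio of Acot4 was 1.003 as given and 0.935 when scaled. With the mean of the 2 day 0 samples as reference it was 0.949, and Acot6 reached 1.014. The 2 samples of day 0 differed 2-fold in none of the 7 members measured there and in 2.16% of all genes, in either direction.

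Acot2, the mitochondrial type I enzyme, had the widest range of the members with a mean FPKM of at least 1, 5.43 on the log2 scale over the 11 samples. Its FPKM was 0.976, 8.45 and 22.2 on the 3 days with ROS, and 1.07, 7.25 and 11.9 without it. It was thus higher at each later day in both series, with a log2 ratio from day 0 to day 8 of 4.37 with ROS and 3.37 without. The 2 samples of day 0 differed by 0.12 in log2 ratio.

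Acot1, the cytosolic counterpart of Acot2, had the next widest range, 4.20. Its FPKM was 0.382, 1.35 and 3.78 at days 0, 4 and 8 with ROS and 0.397, 1.07 and 1.77 without ROS, so that it was also higher at each later day. The log2 ratio from day 0 to day 8 was 3.01 with ROS and 1.91 without. Since the transcripts share sequence, the ratio of Acot2 to Acot1 is of interest. It was 2.56 and 2.69 at day 0, between 5.86 and 6.80 in the other samples of the time course, 2.77 in WT A and between 5.29 and 6.61 in the other transduced samples. The FPKM of Acot1 was therefore not in a fixed proportion to that of Acot2.

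Acot13, the mitochondria-associated enzyme with a single hotdog domain, stood out at day 8 with ROS. Its FPKM was 55.5, 54.2 and 145 on the 3 days with ROS, and 51.5, 45.6 and 63.3 without it. All values up to day 4 lay between 45.6 and 55.5, and the value of day 8 with ROS was the highest of the 11 samples. From day 4 to day 8 its log2 ratio was 1.42 with ROS and 0.47 without.

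Acot7 was the most abundant member in preadipocytes and the one with the largest difference downward. Its FPKM was 121 and 128 at day 0 with and without ROS, 30.9 and 29.0 at day 4, and 30.2 and 34.5 at day 8. The level was thus already low at day 4 and about the same at day 8. The log2 ratio from day 0 to day 4 was -1.96 with ROS and -2.14 without.

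Acot9, the mitochondrial enzyme with a pair of hotdog domains, took the same course with a smaller difference. Its FPKM was 63.2 and 60.6 at day 0 with and without ROS, 34.3 and 34.2 at day 4, and 31.2 and 36.7 at day 8. The log2 ratio from day 0 to day 8 was -1.02 with ROS and -0.72 without. Acot10, an intronless relative whose coding sequence is 97.2% identical to that of Acot9, was far lower, between 0.612 and 1.98 FPKM, and the ratio of Acot9 to Acot10 lay between 32.7 and 56.0 in all samples.

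Acot8, the peroxisomal type II enzyme that acts on a broad range of acyl-CoAs, varied little. Its FPKM was 6.76, 9.85 and 12.3 at days 0, 4 and 8 with ROS and 7.57, 9.38 and 12.2 without ROS. It was higher at each later day and had nearly the same value with and without ROS at day 8. Its range over all 11 samples was 0.99 on the log2 scale, the narrowest of the members with a mean FPKM of at least 1.

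The peroxisomal type I members stayed low throughout the time course. Acot4 was 0.0274, 0.329 and 0.285 FPKM at days 0, 4 and 8 with ROS and 0.0183, 0.206 and 0.137 FPKM without ROS, which corresponds to about 3, 39 and 34 reads of 100 bases with ROS and 2, 15 and 14 without. Acot6 was 0.117, 0.560 and 0.428 FPKM with ROS and 0.129, 0.210 and 0.350 FPKM without ROS, or about 10, 52 and 40 reads and 11, 12 and 28 reads. Both were highest at day 4 in the series with ROS. Without ROS, Acot4 was highest at day 4 and Acot6 at day 8. Acot3 was at 0 in 4 of the 6 time course samples and was 0.0152 and 0.0492 FPKM at day 4 with and without ROS, or about 2 and 4 reads, and 9 of the 11 samples were at or under 3 reads for it. A value of 0 allows up to 3 reads, which is an FPKM between 0.0219 and 0.0373 for Acot3 and between 0.0244 and 0.0416 for Acot4, depending on the sample. At this depth no difference of Acot3 could be detected in the time course.

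Acot11, the cold-induced gene of brown fat, was 0.0526, 0.0140 and 0.155 FPKM at days 0, 4 and 8 with ROS and 0.0679, 0.0789 and 0.145 FPKM without ROS. These values rest on about 14, 4 and 45 reads and 18, 14 and 36 reads over an exon length of 5668 bases. The level at day 8 was above that of day 0 in both series, and it was still far lower than that of any other type II member.

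**Figure D2:**
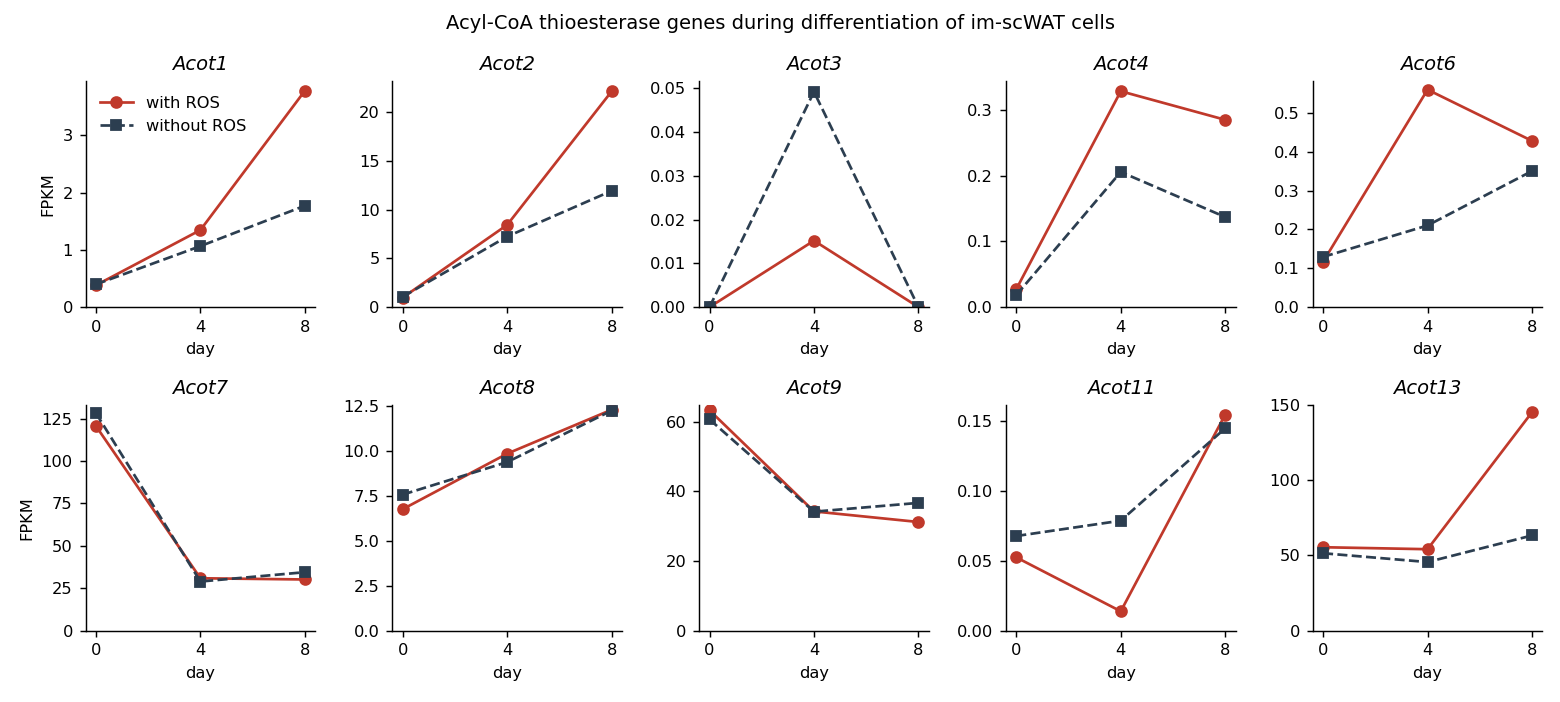
FPKM (vertical axis, from 0, a separate scale for each gene) at days 0, 4 and 8 (horizontal axis) with ROS (circles, solid line) and without ROS (squares, dashed line), 1 sample per point. Acot1 and Acot2 are higher at each later day in both series, Acot7 and Acot9 are lower from day 4 on, and the lines of Acot13 part only at day 8 (145 FPKM with ROS and 63.3 FPKM without).

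The effect of ROS was then read from samples of the same day. At day 4, Acot6 alone among 8 measured members was 2-fold higher with ROS, with 52 against 12 reads (log2 ratio 1.09), and none was 2-fold lower. Of all 15246 measured genes, 1.18% were 2-fold higher and 2.03% were 2-fold lower. At day 8, Acot13 (log2 ratio 1.20) and Acot1 (1.05) of 9 measured members were 2-fold higher with ROS, and none was 2-fold lower. Of all 15536 measured genes, 3.06% were 2-fold higher and 11.5% were 2-fold lower. Acot2 followed at 0.89 and Acot4 at 0.70, and the other members lay between -0.23 (Acot9) and 0.23 (Acot6).

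At day 8 the median log2 ratio with over without ROS was 0.23 for the measured members and -0.21 for all measured genes. When the samples were scaled by the median of their ratios, the median of all genes moved by 0.18 and became -0.03, and the log2 ratios were 1.39 for Acot13, 1.24 for Acot1, 1.08 for Acot2, 0.00 for Acot7 and -0.04 for Acot9. Acot1 was no longer 2-fold higher with a pseudocount of 1 (0.79). For Acot13, Acot1 and Acot2 the log2 ratio at day 4 was 0.25, 0.31 and 0.22, and at day 0 with over without ROS it was 0.11, -0.05 and -0.12. The differences at day 8 were therefore larger than those between the 2 samples of day 0, each of which is 1 sample. Between WT A and WT B, at day 8 with ROS, the log2 ratio was larger in size than at day 0 for Acot1 (0.75) and Acot2 (0.49), and it was 0.08 for Acot13.

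**Figure D3:**
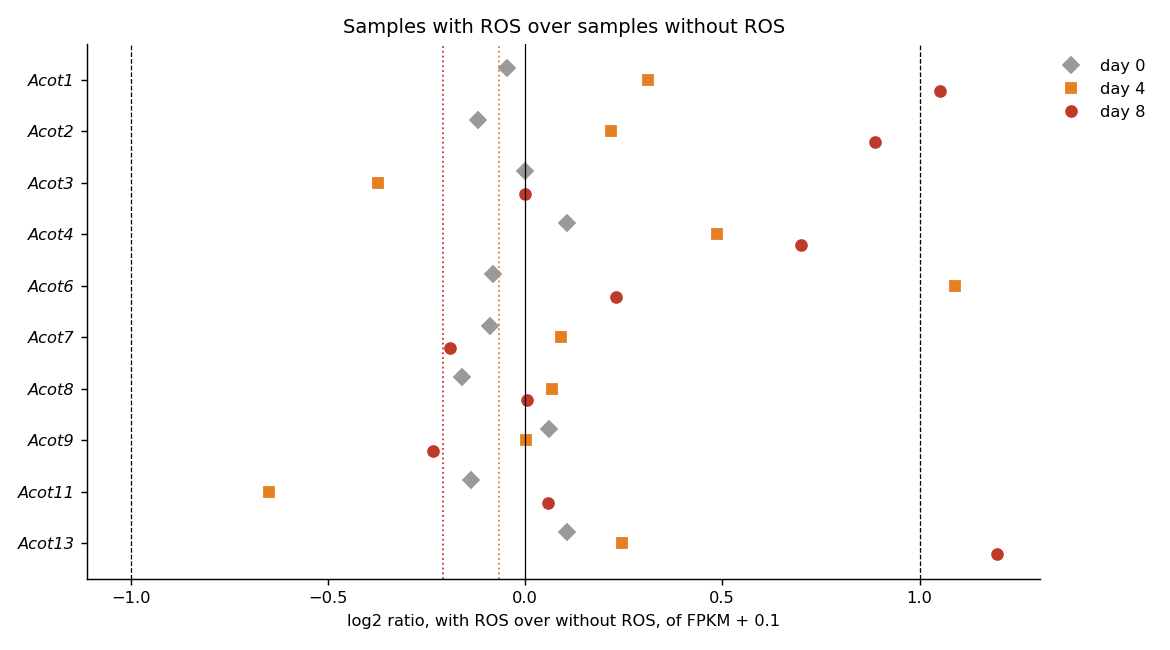
Log2 ratio of FPKM + 0.1 with ROS over without ROS (horizontal axis) for each member (vertical axis) at day 0 (grey diamonds), day 4 (orange squares) and day 8 (red circles), 1 sample on each side. Dashed lines mark a 2-fold difference and dotted lines the median of all measured genes at day 4 (-0.07) and day 8 (-0.21); only Acot1 and Acot13 at day 8 and Acot6 at day 4 lie beyond a dashed line.

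In the same samples of day 8, all 7 beige markers were higher with ROS. All 8 preadipocyte markers were lower with ROS, with sums of 259 and 992 FPKM, and 7 of 10 adipocyte markers were higher, with sums of 37000 and 10100 FPKM. Most of the adipocyte sums came from Fabp4 (31400 and 7631 FPKM), and Pparg, Retn and Lep were lower with ROS. Ppara, the nuclear receptor of fasting, was 9.77 FPKM with ROS and 2.28 FPKM without, and Ucp1, the uncoupling protein, was 9.90 and 0.0970 FPKM. Pparg, the receptor of ROS, was 140 FPKM with ROS and 231 FPKM without. Their part in the levels of the thioesterase genes was not tested.

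A wider list of 51 genes, most of which make, bind, carry or use acyl-CoA, was examined beside the members. It included thioesterase genes that are not members (Acot5, Acot10, Acot12, Them4 and Them5) and genes of coenzyme A synthesis (Pank1, Pank2, Pank3 and Coasy). At day 8, 7 of 44 measured genes of the list were 2-fold higher with ROS and 1 was 2-fold lower, against 3.06% and 11.5% of all measured genes. At day 4 the count was 0 of 43 in either direction, against 1.18% higher and 2.03% lower of all. Among those with large differences at day 8 were Cpt1b, the muscle-type carnitine palmitoyltransferase, and Mlycd, malonyl-CoA decarboxylase. Cpt1b was 34.4 FPKM with ROS and 2.85 FPKM without, and Mlycd was 49.0 and 18.9 FPKM. The log2 ratios were 3.55 and 1.37, both larger than that of Acot13 (1.20). The 2 WT samples, also at day 8 with ROS, were far apart for these 2 genes. In WT A and WT B, Cpt1b was 76.4 and 7.01 FPKM, and Mlycd was 35.2 and 14.9 FPKM.

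From day 0 to day 8 with ROS, 27 of 44 genes of that list were 2-fold higher and 5 were 2-fold lower, against 18.9% and 23.2% of all measured genes. Without ROS, 26 were higher and 2 lower, against 19.7% and 11.4% of all. The list was chosen with earlier results of these data known, so these counts are a description. The largest differences with ROS were those of the acyl-CoA synthetase genes Acss3, Acsm3 and Acsl1. Acss3 was 0, 6.16 and 10.3 FPKM at days 0, 4 and 8 with ROS, and Acsm3 was 0, 1.496 and 5.22 FPKM. Acsl1, which activates long-chain fatty acids for the reaction that the thioesterases reverse, was 8.94, 902 and 423 FPKM. It was highest at day 4, whereas Acot1, Acot2 and Acot13 were highest at day 8 in that series.

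Acot5, a peroxisomal type I gene between Acot3 and Acot6, is not among the 10 genes. Its FPKM was 0, 3.49 and 1.03 at days 0, 4 and 8 with ROS and 0, 2.17 and 0.496 without ROS. It was thus highest at day 4 in both series, as Acot4 was at lower levels. At day 4 it exceeded Acot1, Acot3, Acot4 and Acot6. Acot12, the acetyl-CoA hydrolase, was at most 0.141 FPKM in any sample. Them4 and Them5 are mitochondrial relatives of Acot13. Them4 was between 3.09 and 29.8 FPKM, with the lowest values at day 0, and Them5 was at 0 in 10 of the 11 samples.

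The question in the transduced cells was how phosphorylation of that serine and demethylase activity of JMJD1A bear on gene expression. WT A and WT B stood apart from each other, and this limits every comparison with WT. Between them 22.8% of 15837 measured genes were 2-fold apart in either direction, as were 3 of 9 measured members, Acot4, Acot6 and Acot11, all of them lower in WT B. Of 10 adipocyte markers, 8 were higher in WT A, while their sum was 16100 FPKM in WT A and 29600 FPKM in WT B, most of it from Fabp4 (12390 and 26900 FPKM). All 7 beige markers were higher in WT A, with sums of 324 and 111 FPKM, and all 8 preadipocyte markers were lower in WT A, with sums of 414 and 886 FPKM. The macrophage markers summed to 6.29 and 17.4 FPKM, with Cd68 and Itgam lower in WT A, Cd14 and Csf1r higher in WT A, and Ptprc and Emr1 at 0 in both. The muscle markers summed to 1.40 and 19.3 FPKM, all of it from Acta1. Ppara was 12.1 FPKM in WT A and 1.83 FPKM in WT B, and Ucp1 was 12.1 and 0.724 FPKM. The part of these in the members' levels was not tested.

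The low members carried the difference between the WT samples. Acot4 was 1.22 FPKM in WT A and 0 in WT B, or about 105 reads against 0, and it was 0.137 FPKM in S265A, 0.181 FPKM in S265D and 0.0372 FPKM in S265D-H1120Y, or about 17, 21 and 4 reads. Acot11 was 1.10 FPKM in WT A, 0.0668 FPKM in WT B, 0.0397 FPKM in S265A, 0.176 FPKM in S265D and 0.0458 FPKM in S265D-H1120Y. Acot6 was 1.34 FPKM in WT A, 0.252 FPKM in WT B, 0.462 FPKM in S265A, 0.450 FPKM in S265D and 0.569 FPKM in S265D-H1120Y. For these 3 genes WT A was the highest of all 11 samples, and the single samples of the mutants lay below WT B or between both WT samples. Acot3 was 0.0930 FPKM in WT A, about 9 reads, and at most 1 read in each of the other transduced samples. Acot5 was also highest in WT A (4.80 FPKM) and was 0.462 FPKM in WT B.

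The abundant members differed less between the WT samples. Acot2 was 21.0 FPKM in WT A and 29.4 FPKM in WT B (25.2 ± 5.98, SD, n = 2), 37.7 FPKM in S265A, 29.2 FPKM in S265D and 46.4 FPKM in S265D-H1120Y. The samples S265A and S265D-H1120Y were above both WT samples, and S265D lay between them. Acot1 was 7.56 FPKM in WT A and 4.45 FPKM in WT B (6.01 ± 2.20, SD, n = 2), 6.01 FPKM in S265A, 4.83 FPKM in S265D and 8.76 FPKM in S265D-H1120Y, so only the last lay outside the WT samples. Acot13 was 110 FPKM in WT A and 104 FPKM in WT B (107 ± 4.16, SD, n = 2), 127 FPKM in S265A, 125 FPKM in S265D and 93.8 FPKM in S265D-H1120Y. Here S265A and S265D were above both WT samples and S265D-H1120Y was below both.

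Acot7 was 39.3 FPKM in WT A and 28.5 FPKM in WT B (33.9 ± 7.65, SD, n = 2), 20.0 FPKM in S265A, 24.8 FPKM in S265D and 23.1 FPKM in S265D-H1120Y. All of the mutants were below both WT samples. Acot9 was 33.1 FPKM in WT A and 49.3 FPKM in WT B (41.2 ± 11.5, SD, n = 2), 49.5 FPKM in S265A, 50.4 FPKM in S265D and 64.8 FPKM in S265D-H1120Y. Over WT B, the log2 ratio was 0.01 in S265A and 0.03 in S265D, and S265D-H1120Y was the highest. Acot8 was 9.81 FPKM in WT A and 7.48 FPKM in WT B (8.65 ± 1.65, SD, n = 2), 7.47 FPKM in S265A, 7.71 FPKM in S265D and 6.16 FPKM in S265D-H1120Y.

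**Figure D4:**
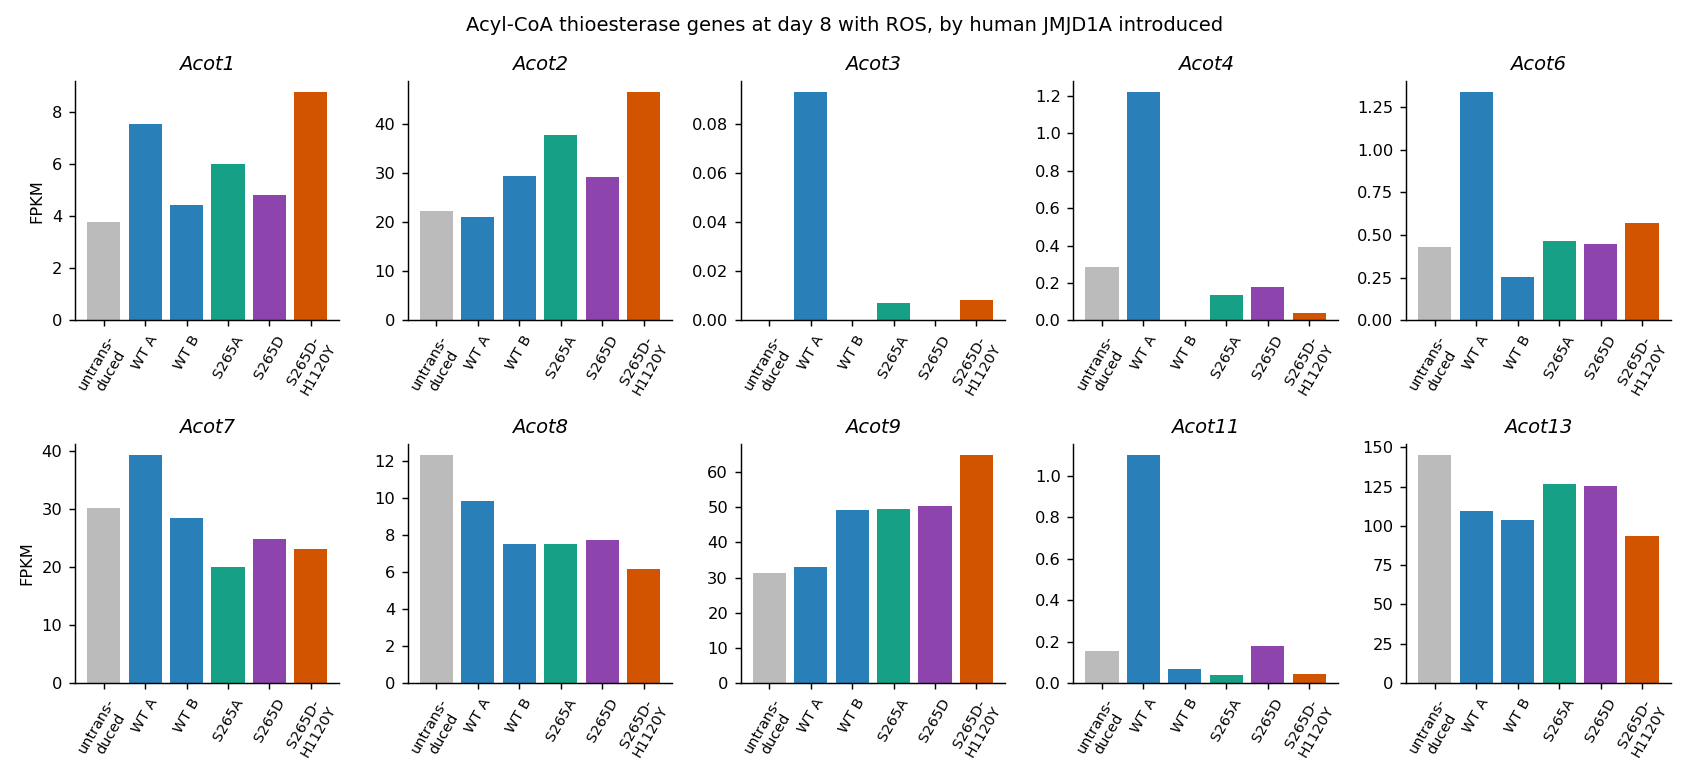
FPKM (vertical axis, from 0, a separate scale for each gene) at day 8 with ROS in untransduced cells (grey), WT A and WT B (blue), S265A (green), S265D (purple) and S265D-H1120Y (orange), 1 sample per bar. The bars of Acot3, Acot4, Acot6 and Acot11 are tall only in WT A, whereas Acot2 and Acot9 are highest in S265D-H1120Y (46.4 and 64.8 FPKM).

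In counts, 2 of 9 measured members, Acot4 and Acot11, were 2-fold lower in S265A than the mean of the WT samples, against 4.12% of 16051 measured genes, and none was 2-fold higher, against 1.81%. Against WT B alone, Acot4 had the opposite direction in S265A (log2 ratio 1.24), which rests on 17 reads against 0 and depends on the pseudocount, and none of the members was 2-fold lower. The same 2 members were 2-fold lower in S265D than the mean of the WT samples, against 2.71% of 16089 measured genes, and none was 2-fold higher, against 2.19%. Against WT B alone, the log2 ratio in S265D was 1.49 for Acot4 and 0.73 for Acot11. The calls of lower levels against WT thus rest on WT A. Both comparisons share the WT samples. Among members with an FPKM of at least 1 in all transduced samples, no log2 ratio of S265A or S265D against the mean of WT reached 1 in size, the largest being -0.76 for Acot7 in S265A.

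Between S265D-H1120Y and S265D, 1 of 9 measured members was 2-fold lower, Acot4 with 4 against 21 reads, while 6.29% of 15760 measured genes were 2-fold lower. None was 2-fold higher, against 3.86% of all. The log2 ratio was 0.85 for Acot1, 0.67 for Acot2, 0.36 for Acot9, -0.10 for Acot7, -0.32 for Acot8 and -0.42 for Acot13. In size they exceeded the difference between the WT samples for Acot1 (-0.75, WT B over WT A), Acot2 (0.49) and Acot13 (-0.08), and they were smaller than it for Acot9 (0.57), Acot7 (-0.46) and Acot8 (-0.39). Among the low members the log2 ratio was -0.92 for Acot11, with 12 against 50 reads, and 0.28 for Acot6. Both were smaller in size than the difference between the WT samples (-2.85 and -2.03). Every adipocyte marker except Lep was lower in S265D-H1120Y than in S265D, such as Adipoq (396.5 and 589.3 FPKM) and Cebpa (43.2 and 86.4 FPKM). All beige markers were lower too, and the preadipocyte markers differed in both directions. The part of these markers in the members' levels was not tested. In the same comparison 8 of 43 genes of the acyl-CoA list were 2-fold lower and 1 was 2-fold higher. Between the WT samples the list differed more, with 15 of 44 genes 2-fold lower in WT B than in WT A and 3 higher.

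The patterns most like those of Acot2 and Acot1, the members with the widest range, were looked for over the 11 samples among 12416 genes with a mean FPKM of at least 1. The measure was the root mean square difference of log2(FPKM + 0.1) after subtracting each gene's mean. For Acot2 the nearest was Angptl6, a secreted angiopoietin-like protein, at 0.21, followed by the transcripts AK019679 (0.30) and AK010770 (0.36), Soat2 (0.37) and AK087295 (0.40). For Acot1 the nearest were Cbr2 (0.39), Grik5 (0.40), AK043851 (0.40), Nhsl2 (0.41) and Slc4a4 (0.41). Acot1 came at place 26 for Acot2, and Acot2 at place 42 for Acot1, with a difference of 0.59. All of these points share libraries, and the values describe only these samples.

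The promoters were searched for the half-site of nuclear receptors, AGGTCA, on both strands. RefSeq windows of GRCm38.p6, from 250 bases before the start to 50 bases after it, were at hand for 8 of the 10 genes, and not for Acot6 and Acot13. The half-site was in the windows of Acot3 and Acot4 and in 16.3% of all 32851 windows. A direct repeat of it with 1 base between the copies, the form that PPARs bind with RXR, was in none of the members' windows and in 0.0396% of all windows. The windows of Acot1 and Acot2 held neither in these letters.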

How the data were processed

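The authors sequenced TruSeq libraries and mapped them to UCSC transcripts and to mm9 with BWA, followed by local realignment. The deposited files give, per transcript and strand, the FPKM, its log10 and log2, and the signal, or coverage, as mapped bases. Versions are not given in the sources used here. The FPKM was used. Because mapped bases are not read counts and 9 of 10 groups had 1 sample, no test was made.

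The members and gene lists were chosen with earlier results of these data known. Genes were represented by the sense row marked as representative. Log2 ratios used a pseudocount of 0.1, a minimum FPKM of 0.1 in a sample of the comparison and a 2-fold cutoff (log2 ratio of 1). The reference for the mutants was the mean of both WT samples. Samples were grouped by their labels. From the acyl-CoA list, the 3 genes with the largest log2 ratio with ROS at day 8 and the 3 from day 0 to day 8 were named (mean FPKM of at least 1), and for the 2 members with the widest range the 5 nearest genes. Read numbers are mapped bases divided by 100 and cover counting error only. Alternatives changed the transcript row, pseudocount, minimum, scaling, WT sample and day 0 reference. Python 3.11.15, numpy 2.4.6, pandas 2.3.3, biopython 1.88 and matplotlib 3.10.9 were used. Amino acid sequences were not analysed here. A gene that the rule for the list names is not reported here.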

Additional observations from a re-analysis of the deposited data

Results flagged for a closer look

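Antisense rows were not used in the comparisons, and those of 7 members exceeded 3 reads of 100 bases in at least 1 sample. The highest antisense FPKM was 0.715 for Acot8 (WT A), 0.472 for Acot7 (day 0 with ROS), 0.435 for Acot9 (S265A), 0.236 for Acot13 (WT B), 0.140 for Acot6 (day 4 without ROS), 0.0977 for Acot2 (WT A) and 0.0153 for Acot11 (S265D-H1120Y). Acot8 and Acot9 were above that limit in all 11 samples. Antisense bases made up between 1.46% and 8.77% of the bases of both strands for Acot8 and between 0.195% and 0.871% for Acot9. The highest share was larger still for Acot4, Acot6 and Acot11, whose sense levels were low. At day 4 without ROS the sense FPKM of Acot6 was 0.210, against 0.140 for its antisense row. That sample is one side of the 2-fold difference of Acot6 with ROS at day 4. The part of antisense reads in that difference was not tested.

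The log2 ratio of Acot7 with over without ROS was 0.092 at day 4 and -0.19 at day 8, and it was 0.088 in size between the 2 samples of day 0, nearly that of day 4. With median-of-ratios scaling it was 0.152 at day 4, 0.001 at day 8 and 0.142 in size at day 0, so the opposite signs were lost. With 1 sample on each side, the difference between the days was not tested.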

How the results depend on the processing

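Each count of members was recomputed under up to 9 alternatives, and 87 of 108 recomputed counts stayed within 1.5 times the value given. With a pseudocount of 1, the counts of members 2-fold higher became 0 for ROS at day 4, 1 for ROS at day 8, 3 from day 0 to day 8 with ROS and 1 without ROS, those 2-fold lower became 1 from day 0 to day 8 with ROS and 0 in S265A, S265D and S265D-H1120Y, and 1 member was 2-fold apart between the WT samples. With a minimum FPKM of 1, the counts were 0 for ROS at day 4, 3 higher from day 0 to day 8 with ROS and 0 lower in S265D-H1120Y. With the sense row of the highest mean, and with the sum of sense rows, 2 members, Acot4 and Acot11, were lower in S265D-H1120Y. With the sum, 1 was lower with ROS at day 4. With median-of-ratios scaling, and with the mean of the 2 day 0 samples as reference, 1 member was lower at day 8 with ROS. Leaving out WT A or WT B, the count against WT ranged from 0 to 1 higher and from 0 to 3 lower in S265A and in S265D. Without WT A, Acot4 reversed to 1.24 in S265A and 1.49 in S265D, and Acot11 to 0.73 in S265D. Without WT B the same log2 ratios were -2.48, -2.23 and -2.12. Of 145 recomputed log2 ratios of members that were 2-fold apart, 126 remained so. The cause of these changes was not tested. Depth limited Acot3, Acot4, Acot6 and Acot11. No paired analysis was possible because the groups share no replicate numbers that pair the samples.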
